A study of Mus musculus with 5 samples.

Results

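The expression of 10 genes that mark vascular endothelium was compared between kidney cortical tissue of Fnip1 null and wildtype (WT) mice. The 10 genes were Kdr, Flt1, Tek, Tie1, Pecam1, Emcn, Plvap, Ehd3, Egfl7 and Nos3, chosen by name as endothelial markers, and all 10 were found among the 24421 gene symbols counted in each mouse. The RNAseq libraries analyzed here came from flash-frozen cortex of 3 Fnip1 null mice (8637, 9210 and 9121, genotype Fnip1-/-) and 2 WT mice (9055 and 9056, genotype Fnip1+/+), with 1 library per mouse and no treatment. The study's account of this assay names a larger WT group than the mice analyzed here. All 5 mice were of the C57BL6J strain. The null allele came from ENU chemical mutagenesis and was carried in the germline, so that no promoter or Cre limited it to the kidney or to endothelium. The labels give neither the age nor the sex of a mouse, and the study states an adult age range for this assay. The labels name the controls Fnip1+/+, whereas the study's account of this assay also calls them Fnip1+/-, and which of the 2 genotypes they carried could not be settled here.

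Fnip1, which encodes a partner of the tumor suppressor Folliculin, measured 51.7 and 48.6 normalized CPM (gene counts per library, scaled to equal TMM-adjusted size) in the WT mice and 21.0, 16.9 and 16.0 in null mice 8637, 9210 and 9121, a log2 fold change of -1.48 (SE 0.136, adjusted p = 0.0313 by edgeR's quasi-likelihood test). The log2 fold change was -1.61 to -1.40 with any 1 mouse left out, while the edgeR adjusted p was 0.121 without null mouse 9210, 0.218 without WT mouse 9055 and 0.510 without WT mouse 9056. Gene counts per library ran from 15799114 to 19132145, at which 3 counts correspond to 0.158 to 0.186 CPM. No pair of libraries of 1 genotype agreed within sampling noise, and each mouse was counted as 1 replicate. Over all genes tested, the chi-square of counts per degree of freedom was 9.58 for the WT pair and 23.4 to 67.0 for the null pairs. The table of the mouse titled 9210 carries a different mouse number in its own name, and the title was used. Null mouse 9121 stood apart in its sex-linked genes, with 314 CPM of Xist and none of Ddx3y, Kdm5d or Uty, whereas the other 4 mice had at most 1.41 CPM of Xist and at least 17.3 CPM of each of these Y-linked genes. Results are therefore also given without mouse 9121.

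Endothelium of the kidney cortex takes several forms. Glomerular capillaries are fenestrated and largely lack diaphragms, peritubular capillaries carry fenestrae closed by diaphragms, and arterioles have a continuous lining. VEGF-A made by podocytes and tubules acts on the endothelial receptor Kdr, and angiopoietins act on the receptor Tek. Both receptors maintain these vessels, and nitric oxide made by Nos3 relaxes the smooth muscle around them. In whole tissue, fewer cells of a type and less RNA per cell cannot be told apart.

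None of the 10 endothelial genes met the study's rule for differential expression (an FDR of 5% with a change of 2-fold or more), which 0.533% of the 13874 genes tested met. All 10 had a positive log2 fold change (null minus WT), from 0.38 for Plvap to 0.76 for Kdr, as did 50.5% of all genes tested. Their median log2 fold change was 0.55, compared with 0.0031 over all genes tested. In 6 of the 10 (Kdr, Flt1, Tie1, Emcn, Ehd3 and Nos3) every null mouse was above both WT mice, which held for 22.9% of all genes tested, and in the other 4 (Pecam1, Tek, Plvap and Egfl7) null mouse 8637 lay below WT mouse 9055. Without mouse 9121 the same 6 genes were separated, against 26.5% of all genes, the median log2 fold change of the 10 was 0.48 and 0 of 10 passed an FDR of 5% (lowest edgeR adjusted p 0.0897).

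By edgeR's quasi-likelihood test with Benjamini-Hochberg adjustment over all genes tested, adjusted p values of the 10 genes ran from 0.103 for Ehd3 to 0.438 for Plvap, and 0 of 10 passed an FDR of 5%, which 0.735% of genes did. At an unadjusted p under 0.05 there were 5 of 10 (Kdr, Flt1, Emcn, Ehd3 and Egfl7), compared with 25.1% of all genes in either direction and 13.9% of all genes higher in null mice. Other tests on the same counts passed 2 of 10 (Emcn and Ehd3) by edgeR's exact test, 2 of 10 (the same genes) by edgeR's likelihood ratio test, and 3 of 10 (Kdr, Emcn and Ehd3) by DESeq2, against 9.82%, 10.6% and 10.7% of all genes (6.18%, 6.81% and 6.43% when only genes higher in null mice are counted). Each of these tests left the fold changes below 2-fold.

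**Figure D1:**
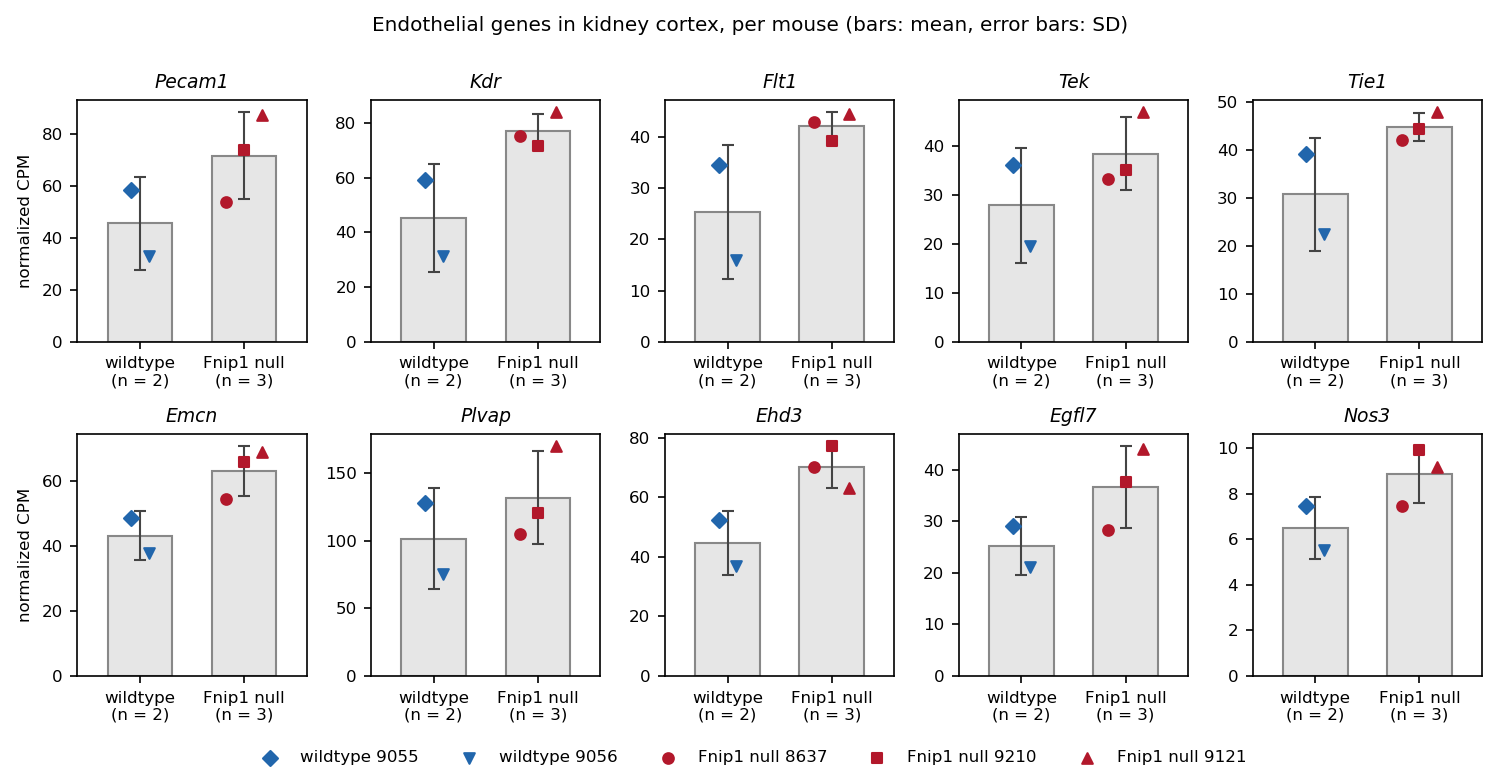
Normalized CPM (linear axis from 0) of the 10 endothelial genes in each mouse, with bars at the mean and error bars of 1 SD for 2 WT and 3 Fnip1 null mice. WT mouse 9056 (downward triangle) was the lowest of the 5 mice in all 10 panels, and WT mouse 9055 exceeded the lowest null mouse in Pecam1, Tek, Plvap and Egfl7.

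Kdr encodes the main signaling receptor for VEGF-A on endothelium and lies on the minus strand of chromosome 5, at chr5:75932827-75978458 (GRCm38). It measured 59.3 and 31.4 CPM in WT mice 9055 and 9056, and 75.2, 71.5 and 84.2 CPM in null mice 8637, 9210 and 9121. The null mice lay close together and above both WT mice, which differed widely from each other. The means were 76.9 ± 6.52 CPM (SD, n = 3) in null and 45.3 ± 19.7 CPM (SD, n = 2) in WT mice, a 1.70-fold difference with a log2 fold change of 0.76 (SE 0.257, 95% interval 0.14 to 1.38, edgeR adjusted p = 0.145). By DESeq2 its adjusted p was 0.0461.

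Flt1 encodes a receptor that binds VEGF-A tightly with weak signaling and is also made in a soluble form, which gene-level counts do not separate from the membrane form. It lies on the same chromosome and strand at chr5:147561604-147726011. Its levels were 34.6 and 16.1 CPM in the WT mice and 42.9, 39.2 and 44.5 CPM in null mice 8637, 9210 and 9121. As with Kdr, the null mice were tightly grouped above a widely spread WT pair. Means of 42.2 ± 2.74 CPM in null (SD, n = 3) and 25.3 ± 13.1 CPM in WT mice (SD, n = 2) gave a log2 fold change of 0.74 (SE 0.299, 95% interval 0.018 to 1.46, edgeR adjusted p = 0.192). The ratio of Flt1 to Kdr within a library was 0.583 and 0.512 in WT mice and 0.571, 0.548 and 0.529 in null mice 8637, 9210 and 9121.

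The 250 bases directly before the RefSeq start of both receptor genes are printed because these genes had the closest pattern across mice of any pair of the 10. They come from RefSeq (GRCm38.p6) and are written 5′ to 3′ on the gene's own strand, in lower case. Capitals mark each AGGAAG or its reverse complement CTTCCT. This is a single form of the motif of ETS factors, which act broadly on endothelial genes. Shorter or other forms of that motif were not searched, so a window with 0 matches can still hold them. The Kdr window is chr5:75978456-75978705 (minus strand, 0 matches) and the Flt1 window chr5:147726012-147726261 (minus strand, 2 matches, starting at -129 and -53 from the start site).
Kdr: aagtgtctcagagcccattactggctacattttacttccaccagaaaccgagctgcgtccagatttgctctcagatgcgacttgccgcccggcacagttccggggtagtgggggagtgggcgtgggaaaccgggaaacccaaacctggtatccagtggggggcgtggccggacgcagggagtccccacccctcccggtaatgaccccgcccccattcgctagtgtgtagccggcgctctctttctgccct
Flt1: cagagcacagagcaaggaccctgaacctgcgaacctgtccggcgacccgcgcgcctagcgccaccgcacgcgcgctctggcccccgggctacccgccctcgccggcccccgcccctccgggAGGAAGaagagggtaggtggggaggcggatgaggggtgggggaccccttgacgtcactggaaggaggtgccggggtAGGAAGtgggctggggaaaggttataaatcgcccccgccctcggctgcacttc

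Tek, the angiopoietin receptor (also named Tie2), lies on the plus strand of chromosome 4 at chr4:94739289-94874976. It measured 36.2 and 19.5 CPM in WT mice 9055 and 9056, and 33.2, 35.1 and 47.1 CPM in null mice 8637, 9210 and 9121. WT mouse 9055 was above 2 of the 3 null mice, so the groups overlapped. The log2 fold change was 0.47 (SE 0.282, 95% interval -0.21 to 1.15, edgeR adjusted p = 0.341), on means of 38.5 ± 7.51 CPM (SD, n = 3) in null and 27.9 ± 11.8 CPM (SD, n = 2) in WT mice.

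Tie1, which encodes a related receptor that pairs with Tek and has no high-affinity ligand of its own, lies at chr4:118471191-118490061 on the minus strand. WT mice 9055 and 9056 had 39.0 and 22.4 CPM, and null mice 8637, 9210 and 9121 had 42.1, 44.2 and 47.9 CPM. The lowest null mouse exceeded WT mouse 9055 by a narrow margin, and the WT pair spread far more than the null mice did. Means of 44.7 ± 2.94 CPM (SD, n = 3) and 30.7 ± 11.7 CPM (SD, n = 2) gave a log2 fold change of 0.54 (SE 0.227, 95% interval -0.0022 to 1.09, edgeR adjusted p = 0.200).

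Pecam1 (CD31), an adhesion molecule of endothelial junctions that platelets and leukocytes also carry, lies at chr11:106654217-106750628 on the minus strand. It measured 58.2 and 33.0 CPM in WT mice 9055 and 9056, and 53.6, 73.8 and 87.2 CPM in null mice 8637, 9210 and 9121. The null mice themselves differed 1.62-fold between highest and lowest, as wide a range as that of Plvap, and the lowest was below WT mouse 9055. With means of 71.6 ± 16.9 CPM (SD, n = 3) and 45.6 ± 17.9 CPM (SD, n = 2), the log2 fold change of 0.65 (SE 0.290, 95% interval -0.049 to 1.35) had an edgeR adjusted p of 0.224.

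Emcn encodes endomucin, a sialomucin on the surface of capillary and venous endothelium, and lies at chr3:137341067-137432185 on the plus strand. Its WT levels were 48.6 and 37.8 CPM, and its levels in null mice 8637, 9210 and 9121 were 54.6, 66.1 and 69.1 CPM. All null mice were above both WT mice, and the WT pair differed less than it did for Kdr, Flt1, Tek, Tie1, Pecam1 and Plvap. Means of 63.3 ± 7.66 CPM (SD, n = 3) and 43.2 ± 7.57 CPM (SD, n = 2) gave a log2 fold change of 0.55 with the smallest error of the 10 genes (SE 0.154, 95% interval 0.18 to 0.92, adjusted p = 0.111 by edgeR's quasi-likelihood test). Its adjusted p was 0.0430 by edgeR's exact test and 0.0385 by DESeq2. By the quasi-likelihood test it was 0.0268 without null mouse 8637. In that setting 19.9% of all genes passed an FDR of 5% (9.87% higher in null mice). By the same test its adjusted p was 0.158 without null mouse 9121 and 0.310 without null mouse 9210.

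The same windows are printed for Emcn, which had the smallest error, and for Tek, whose groups overlapped. The Emcn window is chr3:137340828-137341077 (plus strand, 2 matches, starting at -174 and -93) and the Tek window chr4:94739039-94739288 (plus strand, 0 matches), with capitals as above.
Emcn: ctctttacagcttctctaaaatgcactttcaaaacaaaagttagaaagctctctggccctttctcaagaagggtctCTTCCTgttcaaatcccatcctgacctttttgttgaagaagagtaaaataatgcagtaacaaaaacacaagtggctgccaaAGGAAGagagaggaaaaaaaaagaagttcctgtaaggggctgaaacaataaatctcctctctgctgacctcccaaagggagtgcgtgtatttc
Tek: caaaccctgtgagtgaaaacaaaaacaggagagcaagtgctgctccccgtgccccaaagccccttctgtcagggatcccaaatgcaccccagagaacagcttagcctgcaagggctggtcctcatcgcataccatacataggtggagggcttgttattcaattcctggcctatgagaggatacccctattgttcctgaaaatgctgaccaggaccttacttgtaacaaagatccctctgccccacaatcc

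RefSeq windows were matched for 7 of the 10 genes (9 windows, since Egfl7 had 3). AGGAAG or CTTCCT was found in 4 of the 7 (Flt1, Tie1, Emcn and Egfl7) or 5 of the 9 windows, compared with 29.5% of the 32851 promoters of this length. A GATA motif (AGATAA or TTATCT) was found in 0 of 7, compared with 9.99%. Annotated exons of the gene itself covered 212 of the 250 bases of the Tie1 window and all 250 of the Ehd3 window. A match is a string of letters and not a site of binding, and its absence says only that these letters are not in this window. No window was used for Pecam1, Plvap and Nos3.

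Plvap encodes the protein of the diaphragms of fenestrae and caveolae, which in the kidney belongs to peritubular rather than mature glomerular capillaries, and lies at chr8:71497765-71511752 on the minus strand. WT mice 9055 and 9056 had 128 and 75.0 CPM, and null mice 8637, 9210 and 9121 had 105, 121 and 170.1 CPM. WT mouse 9055 exceeded 2 of the 3 null mice, and the highest value was that of null mouse 9121. Plvap had the smallest genotype difference of the 10, with means of 132 ± 34.0 CPM (SD, n = 3) and 101 ± 37.3 CPM (SD, n = 2) and a log2 fold change of 0.38 (SE 0.284, 95% interval -0.31 to 1.06, edgeR adjusted p = 0.438). Without null mouse 9121 the log2 fold change was 0.15.

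Ehd3, an ATPase of endocytic recycling whose kidney expression is known from the glomerular endothelium, lies at chr17:73804134-73832094 on the plus strand. It measured 52.3 and 37.0 CPM in WT mice and 70.1, 77.3 and 63.3 CPM in null mice 8637, 9210 and 9121. All null mice were above both WT mice, and unlike in 8 of the other genes, mouse 9121 was not the highest but the lowest of the null mice. The means of 70.2 ± 7.01 CPM (SD, n = 3) and 44.7 ± 10.8 CPM (SD, n = 2) gave a 1.57-fold difference and a log2 fold change of 0.65 (SE 0.169, 95% interval 0.25 to 1.06), with the smallest adjusted p of the 10 (0.103 by edgeR's quasi-likelihood test, 0.0205 by its exact test and 0.0174 by DESeq2).

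To set the glomerular marker against the peritubular one within each library, the ratio of Ehd3 to Plvap was taken. It was 0.409 and 0.494 in WT mice 9055 and 9056, and 0.668, 0.641 and 0.372 in null mice 8637, 9210 and 9121. Null mice 8637 and 9210 were above both WT mice and null mouse 9121 was below both. The mean log2 ratio differed by 0.27 (null minus WT, p = 0.5 by a two-sided exact permutation test), where 3 against 2 mice cannot give a p below 0.1. Without null mouse 9121 the difference was 0.54. The ratios of Ehd3 to Pecam1, Flt1 to Kdr and Tie1 to Tek differed by -0.0095, 0.0064 and 0.081 on the log2 scale (exact permutation p = 1, 1 and 0.6), and all 4 ratios had an adjusted p of 1.

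Egfl7, a protein that endothelial cells secrete into the vessel wall and whose gene hosts miR-126, lies at chr2:26580014-26593120 on the plus strand. It measured 29.1 and 21.1 CPM in WT mice 9055 and 9056, and 28.3, 37.7 and 44.1 CPM in null mice 8637, 9210 and 9121. Null mouse 8637 was just below WT mouse 9055. Means were 36.7 ± 7.94 CPM (SD, n = 3) and 25.1 ± 5.64 CPM (SD, n = 2), and the log2 fold change was 0.55 (SE 0.223, 95% interval 0.0095 to 1.09, edgeR adjusted p = 0.194). It was 0.70 (edgeR adjusted p = 0.0408) without null mouse 8637, a setting in which 19.9% of all genes passed the same FDR (9.87% higher in null mice).

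Nos3, the endothelial nitric oxide synthase, lies at chr5:24364810-24384474 on the plus strand and had the fewest counts of the 10 (97 to 174 per mouse). It measured 7.45 and 5.54 CPM in WT and 7.48, 9.92 and 9.18 CPM in null mice 8637, 9210 and 9121. The lowest null mouse and WT mouse 9055 were almost equal. Its log2 fold change was 0.45 (SE 0.211, 95% interval -0.060 to 0.96, edgeR adjusted p = 0.243), on means of 8.86 ± 1.25 CPM (SD, n = 3) and 6.50 ± 1.35 CPM (SD, n = 2). Of its exon bases, 25.2% are shared with the antisense gene Gm15587 and 7.12% with Atg9b, both on the other strand. Egfl7 shares 264 exon bases with Gm20532 on the same strand and 64 with Agpat2 on the other. Gm15587 and Gm20532 are not among the symbols counted, whereas Atg9b and Agpat2 are. Reads from the bases shared by Egfl7 and Gm20532 cannot be told apart by strand. Without a stated strand setting, it is not known whether reads of Gm15587 were counted for Nos3.

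Compared per kilobase of exon, the only scale on which levels of different genes are set side by side here, Plvap was the most abundant of the 10, with a mean of 60.2 CPM per kb over the 5 mice. Emcn (10.2), Pecam1 (9.82), Ehd3 (9.15), Egfl7 (8.96), Tie1 (7.96), Tek (7.26) and Kdr (7.12 CPM per kb) followed in a close series in which the ranges of neighbors over the mice overlapped. Flt1 (2.62) and Nos3 (1.92 CPM per kb) were lowest and overlapped each other. Only the steps from Plvap to Emcn and from Kdr to Flt1 separated neighbors in every mouse without overlap of their ranges.

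The 2 WT mice lay far apart in these genes. WT mouse 9056 was the lowest of the 5 mice in 10 of 10 genes, as it was for 25.7% of all genes tested, and it was below WT mouse 9055 in 10 of 10, compared with 48.6% of all genes. The log2 difference between the WT mice (9055 minus 9056) had a median of 0.78 over the 10 genes, against -0.0077 over all genes tested, whose median absolute difference was 0.144. On the linear scale the ratio of 9055 to 9056 was largest for Flt1 (2.15, 95% interval 1.86 to 2.49), Kdr (1.89, 1.70 to 2.1) and Tek (1.85, 1.62 to 2.12). It was 1.77 (1.59 to 1.96) for Pecam1, 1.74 (1.53 to 1.98) for Tie1 and 1.70 (1.59 to 1.83) for Plvap, and smaller for Ehd3 (1.41, 1.27 to 1.57), Egfl7 (1.38, 1.20 to 1.58), Nos3 (1.34, 1.02 to 1.77) and Emcn (1.28, 1.16 to 1.43). These are exact binomial intervals for counting error alone, and all 10 lay above 1.

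The ratio between the WT mice exceeded that between the highest and lowest of the 3 null mice in 9 of 10 genes, widely for Flt1 (1.14 in null mice), Tie1 (1.14) and Kdr (1.18) and narrowly for Emcn (1.27) and Nos3 (1.33), but not for Egfl7 (1.56). The share of all genes for which this held was not computed. Over all genes tested the WT libraries were more alike than any pair of null libraries, as given above. Genotype differences depended on which WT mouse was kept. Without WT mouse 9056 the median log2 fold change of the 10 genes was 0.29, from 0.042 for Plvap to 0.42 for Ehd3, and without WT mouse 9055 it was 0.95, from 0.67 for Nos3 to 1.39 for Flt1. Without a null mouse it was 0.65 (8637), 0.54 (9210) and 0.48 (9121), and all 10 log2 fold changes stayed positive in each of these 5 fits. At an unadjusted p under 0.05 by edgeR's quasi-likelihood test there were 1 of 10 without WT mouse 9056 (8.67% of all genes), 9 of 10 without WT mouse 9055 (17.6%), 3 of 10 without null mouse 9121 (20.7%) and 3 of 10 without null mouse 9210 (14.8%). With a WT mouse left out, the remaining one is assumed to vary as the null mice do.

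**Figure D2:**
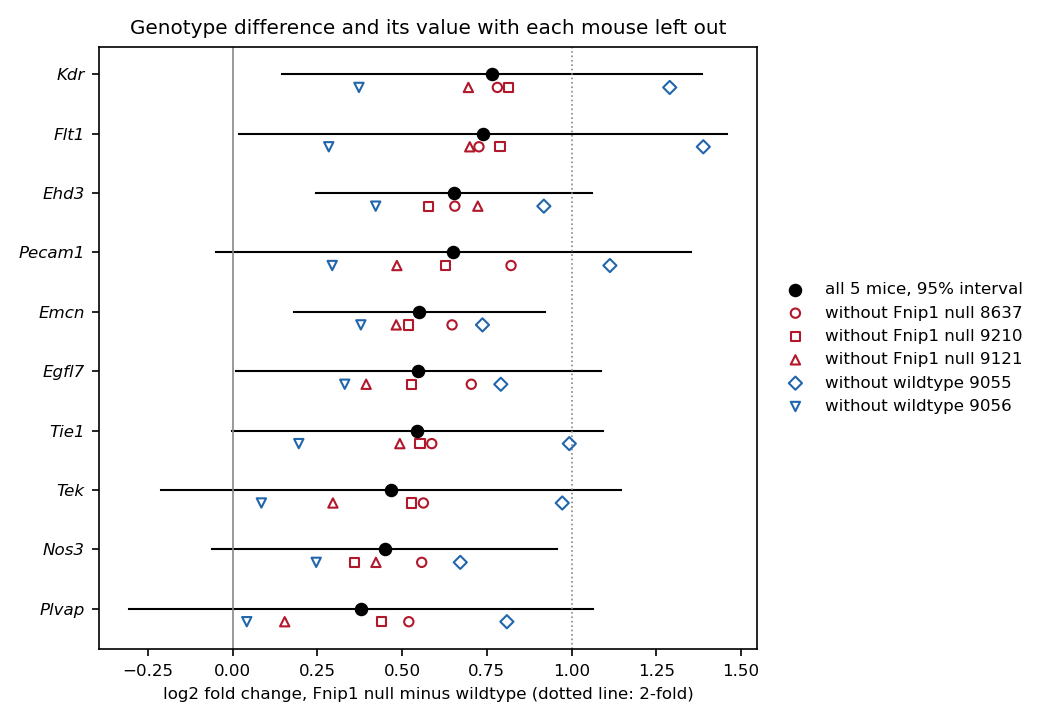
Log2 fold change (null minus WT, horizontal axis) of each endothelial gene, with filled circles and lines for the estimate and 95% interval from all 5 mice and open symbols for the estimate with 1 mouse left out. Every estimate was above 0, those without WT mouse 9056 were the smallest for all 10 genes, and those without WT mouse 9055 the largest.

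Centered on each gene's own mean over the 5 mice, the mean log2 profile of the 10 genes was -0.012 and -0.71 in WT mice 9055 and 9056 and 0.067, 0.25 and 0.41 in null mice 8637, 9210 and 9121. WT mouse 9055 and null mouse 8637 were thus near each other, with WT mouse 9056 far below and null mouse 9121 above. Measured by the root mean square (RMS) log2 distance over 5 mice, Tie1 was nearest to the mean of the other 9 (0.066), while Flt1 (0.225) and Ehd3 (0.207) were farthest. The closest pair was Kdr and Flt1 (0.068), and the farthest was Plvap and Ehd3 (0.337). These distances describe 5 libraries that share their depth and composition across genes and carry no test.

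Among 13263 other genes with a mean of at least 1 CPM, the 5 nearest to the mean profile of the 10 were Rab8b (RMS 0.022), Ptprm (0.039), Tdrkh (0.041), Stab1 (0.044) and Ksr1 (0.048). Ptprm encodes a receptor phosphatase found at endothelial junctions, Stab1 a scavenger receptor of sinusoidal endothelium and macrophages, and Rab8b a small GTPase of vesicle traffic. Rab8b measured 20.4 and 13.0 CPM in WT mice and 21.7, 24.8 and 27.4 CPM in null mice 8637, 9210 and 9121 (log2 fold change 0.56, edgeR adjusted p = 0.173). Of 29 other endothelial genes ranked in this way, 5 (Cdh5, Eng, Ptprb, Mmrn2 and Rasip1) were among the nearest 100, which is 0.754% of the genes ranked.

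**Figure D3:**
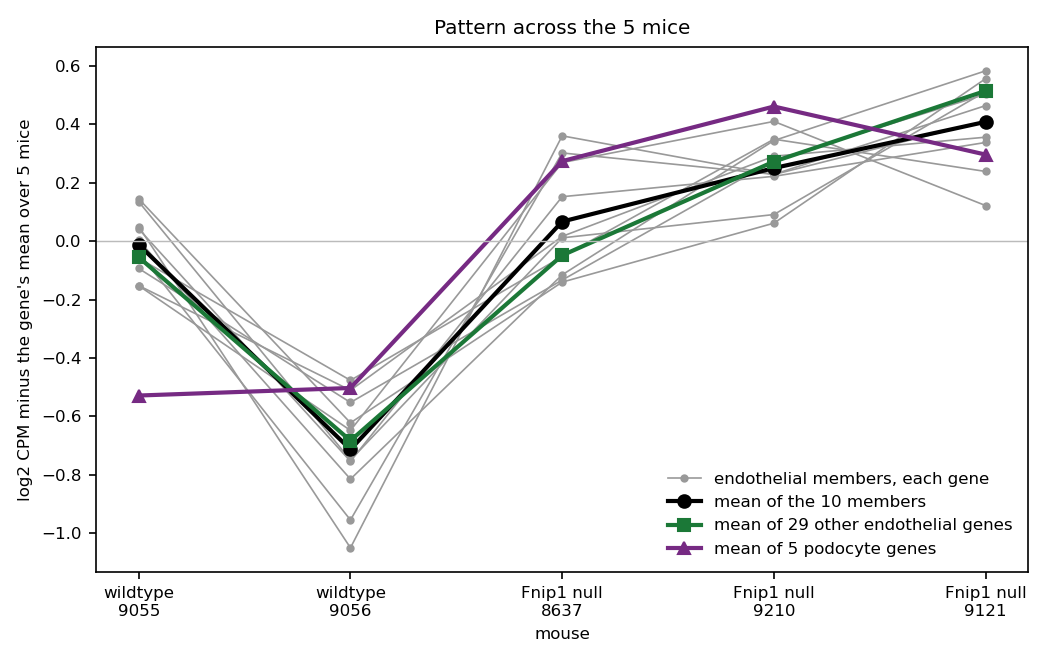
Log2 CPM minus each gene's mean over 5 mice (vertical axis) in each mouse, in gray for the 10 endothelial genes and in black for their mean, with the means of 29 other endothelial genes in green and 5 podocyte genes in purple. Lines only join the values of 1 gene or list. The 2 endothelial lists drop between the WT mice to -0.71 and -0.68 in mouse 9056, while the podocyte mean is -0.53 and -0.50 in the 2 WT mice.

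Of 30 further endothelial genes listed by name, 29 were in the count table and tested, and Exoc3l2 was not found under this symbol. All 29 had a positive log2 fold change, with a median of 0.60, but 0 passed an FDR of 5% by edgeR's quasi-likelihood test (9 at an unadjusted p under 0.05, 6 by edgeR's exact test and 5 by DESeq2 at an FDR of 5%). The null mice were all above both WT mice in 12 of 29 (22.9% of all genes tested), and WT mouse 9056 was the lowest in 27 of 29 (25.7%). Of all genes, 25.1% had an unadjusted p under 0.05 by edgeR's quasi-likelihood test (13.9% when only genes higher in null mice are counted). At an FDR of 5%, 9.82% of all genes passed by edgeR's exact test and 10.7% by DESeq2 (6.18% and 6.43% higher in null mice). These shares also apply to the lists that follow. The largest differences were those of Gpihbp1, which anchors lipoprotein lipase to the capillary wall, and Gpr116, an adhesion receptor. Gpihbp1 measured 11.3 and 6.46 CPM in WT mice and 19.7, 21.4 and 18.5 CPM in null mice 8637, 9210 and 9121 (log2 fold change 1.16, SE 0.242, edgeR adjusted p = 0.0771). Gpr116 measured 95.4 and 67.8 CPM in WT mice and 138, 181 and 183 CPM in the null mice in that order (log2 fold change 1.04, SE 0.195, edgeR adjusted p = 0.0683).

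Of 8 VEGF ligand, receptor and co-receptor genes, 7 were tested, 6 with a positive and 1 with a negative log2 fold change (median 0.44). By edgeR's quasi-likelihood test 0 passed an FDR of 5%, and 2, both higher in null mice, had an unadjusted p under 0.05 (25.1% of all genes, 13.9% higher in null mice). At an FDR of 5%, 2 passed by edgeR's exact test and 2 by DESeq2. Figf, which encodes VEGF-D, had the largest difference, with 8.20 and 8.12 CPM in WT and 14.0, 17.2 and 17.3 CPM in null mice 8637, 9210 and 9121 (log2 fold change 0.98, SE 0.153, edgeR adjusted p = 0.0549). Here the WT mice were nearly equal and the null mice were all above them. The receptor gene Flt4 followed at 0.67 (SE 0.333, edgeR adjusted p = 0.265). Vegfb measured 48.3 and 49.7 CPM in WT and 65.7, 65.2 and 68.6 CPM in null mice 8637, 9210 and 9121. Its log2 fold change was 0.44 (SE 0.0821, edgeR adjusted p = 0.0679). Figf and Vegfb were the 2 genes past an FDR of 5% by edgeR's exact test and by DESeq2. Vegfa, a ligand of Kdr and Flt1, measured 155 and 168 CPM in WT and 179, 170.2 and 179 CPM in null mice (log2 fold change 0.12, edgeR adjusted p = 0.429). The placental growth factor gene Pgf was too low to test, at no more than 0.739 CPM.

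Of 3 angiopoietin genes, 2 were tested and 0 passed an FDR of 5% by edgeR's quasi-likelihood test (1 at an unadjusted p under 0.05, and 1 each by edgeR's exact test and DESeq2). Angpt1, the agonist of Tek, measured 17.8 and 14.3 CPM in WT and 24.1, 24.4 and 24.1 CPM in null mice 8637, 9210 and 9121 (log2 fold change 0.59, SE 0.128, edgeR adjusted p = 0.0797). Angpt2, its context-dependent antagonist, ranged widely in both groups, from 5.94 to 21.0 CPM in WT and from 4.0 to 31.2 CPM in null mice (log2 fold change 0.11, SE 0.889). The highest Angpt2 value was that of null mouse 9121. Without that mouse the log2 fold change was -1.15 for Angpt2 (edgeR adjusted p = 0.315) and 0.60 for Angpt1.

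Among 12 genes of nitric oxide synthesis and response, 10 had positive and 2 negative log2 fold changes (median 0.64). By edgeR's quasi-likelihood test 0 passed an FDR of 5%, and 7 had an unadjusted p under 0.05, 5 higher and 2 lower in null mice. At an FDR of 5%, 2 each passed by edgeR's exact test and DESeq2. The 2 lower genes were Ddah1 and Pde5a (log2 fold change -0.71 and -0.61, edgeR adjusted p = 0.124 and 0.131). Ddah1 was 1 of the 2 genes past this FDR by edgeR's exact test and DESeq2 (adjusted p = 0.0440 and 0.0252). It measured 364 and 431 CPM in WT and 308, 235 and 186 CPM in null mice 8637, 9210 and 9121. Prkg1, a cGMP-dependent kinase of smooth muscle, measured 2.42 and 1.94 CPM in WT and 4.71, 6.36 and 4.91 CPM in null mice 8637, 9210 and 9121 (log2 fold change 1.29, SE 0.256, edgeR adjusted p = 0.0742). Gch1, which makes the cofactor that Nos3 needs, measured 0.683 to 0.914 CPM in WT and 1.35 to 2.53 CPM in null mice (log2 fold change 1.18, edgeR adjusted p = 0.155).

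Among 10 Notch and ephrin pathway genes all 10 log2 fold changes were positive (median 0.47), and 0 passed an FDR of 5% by edgeR's quasi-likelihood test (5 at an unadjusted p under 0.05, 4 by edgeR's exact test and 3 by DESeq2). The Notch target Hey1 and the arterial ephrin Efnb2 had the largest values, 1.37 and 0.81 (edgeR adjusted p = 0.107 and 0.105). Hey1 was low, at 0.745 and 0.457 CPM in WT mice 9055 and 9056. In null mice 8637, 9210 and 9121 it measured 1.77, 1.37 and 1.53 CPM. Its adjusted p was 0.0317 by edgeR's exact test and 0.108 by DESeq2. In the 4 relatives of Ehd3 and Egfl7, the log2 fold change was negative for Egfl8 (-1.03) and Ehd1 (-0.33) and positive for Ehd2 (0.65) and Ehd4 (0.59), with edgeR adjusted p values from 0.120 to 0.224 (3 at an unadjusted p under 0.05, and 0 by the exact test or DESeq2 at an FDR of 5%).

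All 6 arterial genes had positive log2 fold changes (median 0.63), led by Hey1 and by Gja5, a gap junction protein, at 1.03. Positive values were also found in 2 of 3 venous genes (Vwf 0.67 and Ephb4 0.34). These lists and the lymphatic one share genes with the lists above, and the shared genes are counted again here. Hey1, Efnb2 and Ephb4 are also in the Notch and ephrin list, Sox17 and Vwf among the other endothelial genes, and Flt4 in the VEGF list. Of 6 lymphatic genes 4 were tested, with values from -1.21 for Reln to 0.70 for Mmrn1. Without null mouse 9121 the lymphatic median went from 0.19 to -0.14, while the arterial and venous medians stayed positive (0.60 and 0.16). Of the lymphatic markers, Ccl21a was listed at 0 in every mouse and Lyve1 was at 0.0572 to 0.422 CPM. Of 6 genes of endothelial activation 3 were tested and were positive (Vcam1 0.89, Edn1 0.65 and Icam1 0.60), whereas Sele, Selp and Ackr1 did not exceed 1.06 CPM in any mouse. None of these genes passed an FDR of 5% by edgeR's quasi-likelihood test, with 3 arterial, 0 venous, 1 lymphatic and 1 activation gene at an unadjusted p under 0.05. By edgeR's exact test 3 arterial and 1 lymphatic gene passed it, and by DESeq2 2 arterial and 1 lymphatic gene.

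Podocytes face the glomerular endothelium across the filtration barrier. Of 5 podocyte genes, a reduced list from which some markers were left out, all 5 were higher in every null mouse than in both WT mice (median log2 fold change 0.80), and 3 rose at an FDR of 5% by edgeR's quasi-likelihood test: Nphs1 (log2 fold change 1.08, adjusted p = 0.0334), Synpo (0.90, 0.0313) and Ptpro (0.76, 0.0460). All 5 passed by edgeR's exact test and by DESeq2, against 9.82% and 10.7% of all genes (6.18% and 6.43% higher in null mice). Every null mouse was above both WT mice in 22.9% of all genes tested. By the quasi-likelihood test these 3 calls were lost without null mouse 9210 (edgeR adjusted p = 0.125 to 0.180), without WT mouse 9055 (0.218 each) and without WT mouse 9056 (0.510 to 0.516), while their log2 fold changes stayed positive. Of all genes tested, 0.555% were higher in null mice at this FDR. Synpo, an actin-associated protein of podocyte foot processes, measured 47.1 and 46.6 CPM in WT and 84.6, 89.5 and 88.4 CPM in null mice 8637, 9210 and 9121, and Podxl, a sialomucin of the podocyte surface, measured 219 and 204 CPM in WT and 332, 408 and 358 CPM in null mice. Summed over these 5, podocyte genes came to 324 and 312 CPM in WT and 523, 621 and 556 CPM in null mice. The 10 endothelial genes summed to 493 and 299 CPM in WT and 512, 575 and 667 CPM in null mice, so that WT mice 9055 and 9056 were alike in the podocyte sum and far apart in the endothelial sum. The median log2 difference between the WT mice was -0.038 for podocyte genes and 0.78 for the 10 endothelial genes. Whether the podocyte difference had a part in that of the endothelial genes was not tested.

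**Figure D4:**
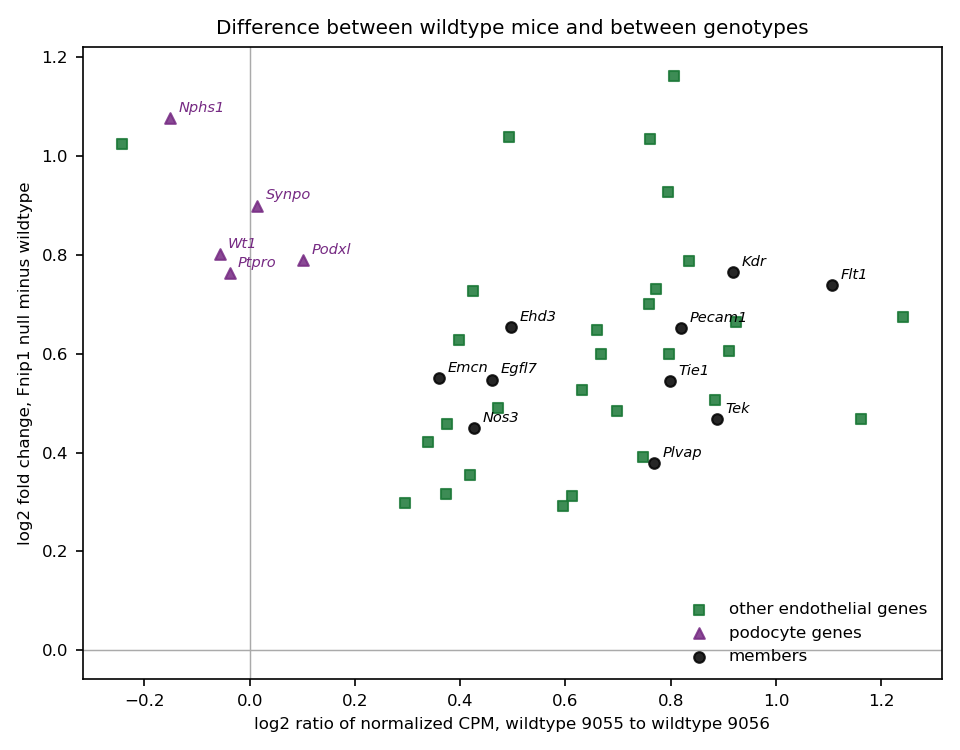
Log2 ratio of normalized CPM between WT mice 9055 and 9056 (horizontal axis) against the log2 fold change between genotypes (vertical axis), 1 point per gene, for the 10 endothelial genes (black circles), 29 other endothelial genes (green squares) and 5 podocyte genes (purple triangles). The 10 endothelial genes lie between 0.36 and 1.11 on the horizontal axis, while the podocyte genes lie near 0 on that axis and between 0.76 and 1.08 on the vertical axis. Both axes use the WT mice, so the positions of the points are not independent of each other.

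Mural cell genes (8 of 8 tested, 7 positive, median log2 fold change 0.51) summed to 186 and 154 CPM in WT and 202, 313 and 256 CPM in null mice 8637, 9210 and 9121, with the highest CPM in Pdgfrb and Acta2. Fibroblast genes (6 of 6 positive, median 1.07) summed to 229 and 116 CPM in WT and 236, 461 and 379 CPM in null mice, with the highest CPM in Col1a2 and Col3a1. Like the endothelial genes, all 6 were lowest in WT mouse 9056. Of 9 leukocyte genes 8 were tested, 7 of them positive (median 1.25), with sums of 105 and 91.9 CPM in WT and 82.2, 91.8 and 155 CPM in null mice. Of the 2 highest in CPM, Csf1r was negative (-0.61) and Laptm5 positive (1.07), and Cd79a was at 0 in all 3 null mice. Adipocyte genes had sums of 182 and 63.4 CPM in null mice 9210 and 9121, against 4.36 CPM in null mouse 8637 and 3.29 and 7.89 CPM in WT mice, mostly from Cfd and Adipoq.

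Platelet genes, of which only Itga2b could be tested (-0.46), summed to 9.75 and 7.77 CPM in WT and 7.18, 7.19 and 7.91 CPM in null mice 8637, 9210 and 9121, and the defining platelet genes Pf4, Ppbp, Gp1bb and Gp9 were at no more than 1.27 CPM. Red cell genes were near the floor apart from Alas2 (log2 fold change 0.48), and Hba-a1 was at 0 in every mouse, in sums of 16.9 and 11.9 CPM in WT and 24.0, 17.9 and 16.6 CPM in null mice. Proximal tubule genes (1 positive and 5 negative of 6, median -0.34) summed to 12095 and 13796 CPM in WT and 11054, 9557 and 8398 CPM in null mice, with the highest CPM in Slc34a1 and Lrp2, and distal nephron genes (6 of 6 positive, median 0.48) to 8582 and 7700.2 CPM in WT and 8214, 8447 and 11862 CPM in null mice, with the highest CPM in Umod and Slc12a1. None of these lists held a gene past an FDR of 5% by edgeR's quasi-likelihood test, with 3 mural, 5 fibroblast, 7 leukocyte, 2 adipocyte, 1 platelet, 0 red cell, 2 proximal tubule and 4 distal nephron genes at an unadjusted p under 0.05. At an FDR of 5%, edgeR's exact test passed 3 mural, 1 fibroblast, 5 leukocyte and 2 distal nephron genes of these lists, and DESeq2 passed 3 mural, 3 fibroblast, 6 leukocyte, 1 proximal tubule and 3 distal nephron genes. Their part in the endothelial values was not tested.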

How the data were processed

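RNAseq libraries of frozen cortical kidney tissue from 3 Fnip1 null and 2 WT mice were analyzed here, 1 TruSeq RNA library per mouse. Per the labels and the study's methods, the authors filtered reads for quality, aligned them to mm10 with TopHat2 2.1.0 and counted them per gene with HTSeq 0.6.1 (versions also in the submitters' processing notes), and the deposited values are these counts, not normalized. The strand setting is not given in the sources used here. The 5 HTSeq summary rows were left out, among them alignments with no gene (9.91 to 10.8% of a file's total) and not unique ones (28.3 to 31.4%, highest in null mouse 8637).

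The counts were tested with edgeR 4.0.16 (R 4.3.3, limma 3.58.1). Genes with under 10 counts in 3 or more mice were left out, which kept 13874 of 24421 genes, all 10 endothelial genes among them (97 to 3224 counts per mouse). Libraries were normalized by TMM (factors 0.914 to 1.09), genotypes were compared by the quasi-likelihood test with Benjamini-Hochberg adjustment over all genes tested, and genes were called by the study's rule of an FDR of 5% with 2-fold or more. The intervals of the ratio between the WT mice and the floors of counts cover counting error only. The intervals of the log2 fold changes and the p values rest on the spread between mice. Member ratios were compared by a two-sided exact permutation test. Positions and exon lengths come from the GENCODE annotation of GRCm38, the assembly also named mm10, and promoters from RefSeq. Scripts were tested on simulated counts. In total 13 alternatives were tried, including DESeq2 1.42.0.

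The members and gene lists were chosen with earlier results of these data known. Named genes were all 10 members, and from each list those past the FDR or otherwise the 2 of largest absolute log2 fold change at a mean of at least 1 CPM, with the 2 most abundant of other cell types. Further genes were named after their values were seen. Some genes of the podocyte list are not reported here and were left out of its counts and sums.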

Additional observations from a re-analysis of the deposited data

How the results depend on the processing

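All 10 endothelial genes kept a positive log2 fold change under all 13 alternatives, and 0 of the 10 was called at 5% FDR with 2-fold or more in any of them. Of 130 combinations of gene and alternative, 121 stayed on their side of the FDR threshold, 9 passed it only in the alternative and 0 reversed. Without the fold threshold the number of the 10 past an FDR of 5% was 0 as reported, 2 by edgeR's exact test, 2 by its likelihood ratio test and 3 by DESeq2, and 0 to 2 with 1 mouse left out (2 without null mouse 8637). At an unadjusted p under 0.05 it was 5 as reported, 8 with library size as the only scaling (27.2% of all genes), and 1 to 9 with 1 mouse left out (1 without WT mouse 9056, 9 without WT mouse 9055, and 3 without null mouse 9121 or 9210, against 8.67%, 17.6%, 20.7% and 14.8% of all genes). Library size alone moved the median log2 fold change of all genes to 0.17 and that of the 10 genes to 0.72. Genes called over the whole table numbered 74 as reported, 570 by the exact test, 628 by the likelihood ratio test, 487 by DESeq2, 145 with no filter on low counts, and 0 to 948 with 1 mouse left out (948 without null mouse 8637). The cause of these shifts was not tested. With 1 mouse left out, the log2 ratio differences ran from 0.12 to 0.54 for Ehd3 to Plvap, -0.20 to 0.22 for Ehd3 to Pecam1, -0.088 to 0.10 for Flt1 to Kdr and 0.027 to 0.19 for Tie1 to Tek. A fit without a WT mouse leaves 1, which is assumed to vary like the null mice. No paired analysis was possible because the labels give the mice no shared replicate numbers.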
